A study of Homo sapiens with 8 samples.

Results

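The peaks considered here lie in 7 stretches of the human genome outside chromosome 6 that hold groups of tRNA genes. They were chosen by position alone: every listed peak of the genome-mapped lists, on either strand, between 143500000 and 149900000 or between 161400000 and 161700000 on chromosome 1, 180900000 and 181300000 on chromosome 5, 149200000 and 149800000 on chromosome 7, 3100000 and 3300000 on chromosome 16, and 7900000 and 8300000 or 38800000 and 38950000 on chromosome 17 (GRCh38). Merging peaks of all libraries that overlapped by 1 nt on 1 strand gave 48 regions in these windows, of 1373 regions in the whole series and 914 in the genome-mapped lists. The study compared wild-type (WT) cells with ALKBH1 knockout (KO) cells of a line that derives from human embryonic kidney, given as HEK-293 in the labels and as HEK293T in the study's methods, where the knockout was made with CRISPR. Which knockout clone was used is not given in the labels. Total RNA of both genotypes was fragmented, given an f5C-bearing spike-in oligonucleotide and treated with the aldehyde-reactive probe ARP, which carries biotin. One fraction was sequenced without pulldown (input) and the other after binding to streptavidin (IP), so that inputs and IPs of both genotypes had been through the ARP reaction. This gave 4 groups of 2 libraries, WT input, WT IP, KO input and KO IP. The study describes the replicates of this pulldown as biological, while the labels do not say whether the 2 libraries of a group came from separate cultures, and p-values measure the spread between these libraries.

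tRNA genes are transcribed by RNA polymerase III into precursors that carry a short leader before the tRNA and a trailer after it, ending in a run of T in the gene. RNase P removes the leader and RNase Z the trailer, and CCA is then added to the mature 3′ end. Many human tRNA genes sit close together in clusters, and several genes often share 1 mature sequence while their flanks differ. ALKBH1 is a dioxygenase that oxidizes 5-methylcytidine to 5-formylcytidine (f5C) in tRNA, and ARP reacts with the aldehyde of f5C. The sites of ALKBH1 reported before the study were the wobble base of cytosolic tRNA-Leu-CAA and of mitochondrial tRNA-Met. The study proposes further ALKBH1-dependent f5C in other cytosolic tRNAs, tRNA-Val-CAC among them. Reads reached the genome-mapped lists only when they did not map to the tRNA and rRNA references, so a peak at a tRNA gene in these lists is distinct from the mature tRNA peak of the same gene.

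Of the 48 regions, 38 lay at 38 different nuclear tRNA genes of 15 amino acids, and the other 10 lay at variant U1 snRNA genes (RNVU1-1, RNVU1-2A, RNVU1-7, RNVU1-28 and RNVU1-31), snoRNA genes (SNORD118, SNORA21, SNORD95 and SNORD96A) or antisense to TRIM41. A tRNA gene is named by its amino acid letter, its anticodon, and its family and copy number, so TRK-CTT2-1 is the first copy of the second lysine family with anticodon CTT. Cysteine and lysine genes gave 7 regions each, asparagine 5 and valine 4. All 38 peaks lay on the strand of the tRNA gene, as read from its internal promoter letters. RefSeq lists 130 tRNA genes in the 7 windows, of 443 nuclear tRNA genes. Outside these windows, 74 regions lay at tRNA genes of the chromosome 6 cluster and 87 at other nuclear tRNA genes. A gene counts here when any library listed a peak at it, and identical bodies limit which genes can be listed. The share of genes with a region is given for each cluster, and no test between clusters was made. In the small cluster of chromosome 17 all 3 tRNA genes had one, and on chromosome 17 between 7900000 and 8300000 it was 8 of 18. The counts were 7 of 17 on chromosome 5, 6 of 14 on chromosome 16 and 4 of 19 on chromosome 7. On chromosome 1, 6 of 28 genes of the wide window and 4 of 31 of the narrow window had a region.

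The sequences below are shown because the results turn on them. They are taken from the GRCh38 genome at RefSeq gene positions and run 5′ to 3′ on the strand of the gene, with the tRNA gene in capitals and 15 nt of flank on either side in lower case. The first set has the 3 lysine genes whose bodies are identical, so that a read can be assigned to 1 of them only through its flank. They lie on the plus strand at chr1:146039386-146039488, chr5:181207740-181207842 and chr16:3175676-3175778.
TRK-CTT2-1: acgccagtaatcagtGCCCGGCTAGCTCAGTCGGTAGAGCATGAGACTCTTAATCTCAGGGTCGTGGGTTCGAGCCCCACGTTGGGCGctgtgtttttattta
TRK-CTT2-2: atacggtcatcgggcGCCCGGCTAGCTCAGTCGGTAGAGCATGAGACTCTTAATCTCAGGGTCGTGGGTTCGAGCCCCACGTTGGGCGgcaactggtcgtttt
TRK-CTT2-5: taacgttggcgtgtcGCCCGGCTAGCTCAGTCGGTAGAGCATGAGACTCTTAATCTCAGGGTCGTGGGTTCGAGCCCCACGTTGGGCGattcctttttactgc
The leader of TRK-CTT2-1 differs from that of TRK-CTT2-2 at 11 of the 15 printed positions and from that of TRK-CTT2-5 at 14, and the leaders of TRK-CTT2-2 and TRK-CTT2-5 differ at 9.

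The second set has 2 cysteine genes of the small cluster on chromosome 17, shown because their bodies are 98.6% identical and their values in the pulldown were unlike. They lie at chr17:38867630-38867731 on the plus strand and at chr17:38869277-38869378 on the minus strand.
TRC-GCA2-2: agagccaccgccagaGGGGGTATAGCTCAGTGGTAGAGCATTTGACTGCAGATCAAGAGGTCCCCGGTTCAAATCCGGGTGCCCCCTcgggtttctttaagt
TRC-GCA4-1: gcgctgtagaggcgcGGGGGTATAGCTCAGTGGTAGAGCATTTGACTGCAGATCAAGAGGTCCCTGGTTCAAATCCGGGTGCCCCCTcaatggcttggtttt
Counted from 1 at the 5′ end of the gene, the body differs at 1 position (C50T, with TRC-GCA2-2 first), and the leaders differ at 14 of 15 positions.

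The third set, from chromosome 5, has 2 valine genes that were listed in WT IP libraries and in neither KO IP, and 1 threonine gene that was listed in all 8 libraries. They lie on the minus strand at chr5:181188401-181188503, chr5:181218255-181218357 and chr5:181191672-181191773.
TRV-AAC2-1: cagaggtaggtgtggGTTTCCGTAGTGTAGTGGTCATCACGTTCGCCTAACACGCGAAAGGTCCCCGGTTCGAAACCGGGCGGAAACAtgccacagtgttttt
TRV-AAC1-4: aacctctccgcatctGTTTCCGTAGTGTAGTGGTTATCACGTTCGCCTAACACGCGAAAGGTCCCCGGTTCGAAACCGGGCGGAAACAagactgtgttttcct
TRT-TGT6-1: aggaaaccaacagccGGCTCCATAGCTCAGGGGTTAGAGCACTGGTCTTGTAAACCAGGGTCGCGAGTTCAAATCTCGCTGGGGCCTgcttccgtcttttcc
The bodies of TRV-AAC1-4 and TRV-AAC2-1 differ at 1 position (T20C, with TRV-AAC1-4 first). TRV-AAC2-1 and TRT-TGT6-1 both lie in the sense direction in an exon of the long non-coding RNA LINC01962 (GENCODE 44). Reads of LINC01962 and of these tRNA genes cannot be told apart there.

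Each value below counts the unique cDNA molecules of a peak, as the authors deposited it. The summed peak counts lay between 48380 and 98032 in the WT libraries and KO IP libraries, and were 194494 and 285539 in KO input libraries. These sums cover listed peaks and are not the depth of the libraries. A peak was listed from 10 counts upward, which is worth 35.0 to 51.4 CPM (counts scaled to the listed peak total of the library) in KO input libraries, 102 and 106 in WT input libraries, 153 and 207 in WT IP libraries, and 187 and 192 in KO IP libraries. A region that is not listed may therefore still have reads, and a low region was seen more easily in KO input libraries. No library listed a peak at ALKBH1, so the peak lists did not check the genotype.

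The first question was how much of each library these clusters held. Their share of the listed peak counts was 1.34% and 1.41% in WT IP libraries, and 1.00% and 0.548% in WT input libraries. It was 0.627% and 0.426% in KO IP libraries and 0.565% and 0.632% in KO input libraries. Both WT IPs lay above the other 6 libraries. The WT IP mean of 1.38% ± 0.0513 (SD, n = 2) was 0.849 percentage points above the KO IP mean of 0.526% ± 0.142 (SD, n = 2) and 0.601 points above the WT input mean of 0.774% ± 0.320 (SD, n = 2). In KO cells the IP mean lay 0.0721 points below the input mean of 0.599% ± 0.0480 (SD, n = 2). This was less than the SD of KO IP libraries but more than that of KO input libraries. An exact two-sided permutation test gave p = 0.3333 for WT IP against KO IP and for WT IP against WT input, the smallest value that 2 libraries against 2 can give. For KO IP against KO input the exact permutation p was 0.667, and for the inputs, which differed by 0.176 points, the same test gave p = 1. The share moves with how much was listed. Taken over the genome-mapped lists alone, the WT IP share was 0.154 points above the WT input share and the ranges overlapped (exact permutation p = 1), while the difference from the KO IP share was 1.30 points. Restricted to the tRNA genes, the shares were 1.29% and 1.39% in WT IP libraries, 0.846% and 0.414% in WT input libraries, 0.597% and 0.364% in KO IP libraries, and 0.350% and 0.383% in KO input libraries.

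**Figure D1:**
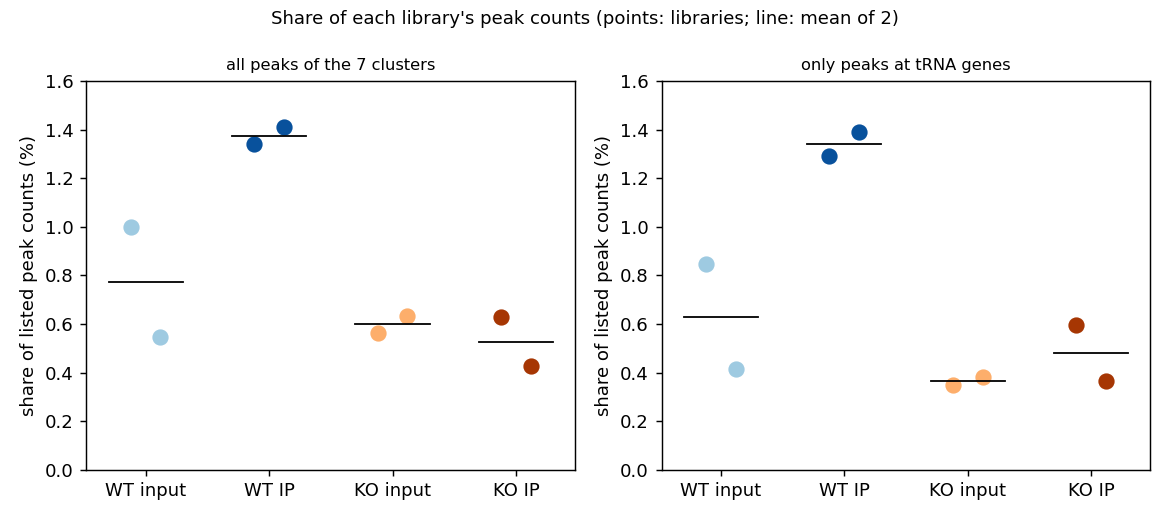
Share of each library's listed peak counts (percent) that fell in the 7 clusters, for all 48 regions (left) and for the 38 regions at tRNA genes (right). Points are libraries and the line is the mean of 2; WT IP libraries lie at 1.34% and 1.41% on the left, above every other library.

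The number of regions listed was 21 and 19 in WT IP libraries and 10 and 9 in KO IP libraries. It was 25 and 18 in WT input libraries and 28 and 42 in KO input libraries, which have the larger sums. The list minimum was 153 and 207 CPM in WT IP libraries and 187 and 192 in KO IP libraries. Over the whole series WT IP libraries had 568 and 414 peaks and KO IP libraries 402 and 371. Of the 48 regions 45.8% were listed in either WT IP and 25% in either KO IP. Of the 914 regions in the genome-mapped lists it was 33.7% and 23.2%. In all, 5 regions were listed in all 8 libraries, 7 in 1 library, and 22 in inputs only, of which 12 were in KO inputs only. Those in all 8 were 10.4% of the 48, against 7.99% of the 914. Those in 1 library were 14.6% against 29.8%, and those in KO inputs only 25% against 38.0%. The 22 input-only regions were 45.8% of the 48, against 59.6% of all regions in the genome-mapped lists. Regions outside tRNA genes were mostly of this kind, with 7 of 10 listed in inputs only.

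**Figure D2:**
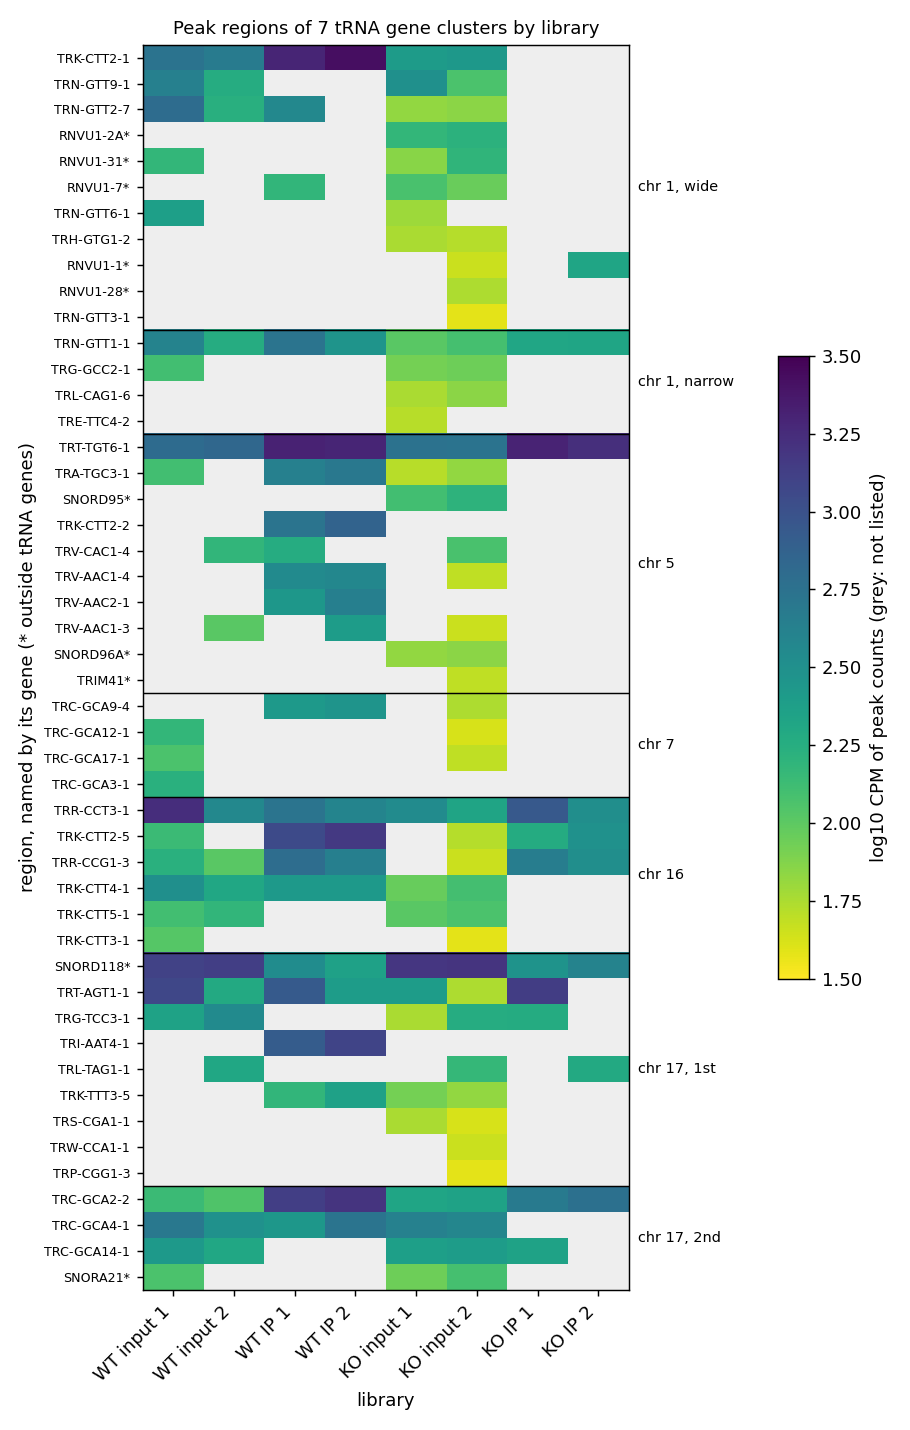
Level of each of the 48 regions in each of the 8 libraries as log10 CPM of peak counts, with grey where no peak was listed and an asterisk at the 10 regions outside tRNA genes. The KO IP columns hold 10 and 9 listed regions, against 21 and 19 in the WT IP columns.

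A set of 10 regions was listed in both WT IP libraries and in neither KO IP, and no region was listed in both KO IP libraries and in neither WT IP. All 10 were at tRNA genes, which is 26.3% of the 38. The same pattern held for 21 of 74 regions (28.4%) of the chromosome 6 tRNA cluster, for 23 of 87 (26.4%) at other nuclear tRNA genes, and for 7.22% of all 914 regions of the genome-mapped lists, so the clusters described here were close to the tRNA genes elsewhere. The reverse pattern made up 2.74% of the 914. The 10 came from 6 of the 7 clusters and comprised 4 lysine genes (TRK-CTT2-1, TRK-CTT2-2, TRK-CTT4-1 and TRK-TTT3-5), 2 cysteine genes (TRC-GCA4-1 and TRC-GCA9-4), 2 valine genes (TRV-AAC1-4 and TRV-AAC2-1), an isoleucine gene (TRI-AAT4-1) and an alanine gene (TRA-TGC3-1). Merged over all libraries, each of the 10 regions reached into the leader, as 19 of the other 28 tRNA regions did. Of their peaks in WT IP libraries alone, those of 5 genes held leader nt in both libraries (TRK-CTT2-1, TRK-CTT2-2, TRK-CTT4-1, TRI-AAT4-1 and TRV-AAC1-4) and those of 3 in 1 library, while those of TRK-TTT3-5 and TRC-GCA9-4 lay inside the gene. For the other 7 tRNA genes listed in both WT IPs, 2 had leader nt in both and 5 in neither. Of the 10, 3 were listed in both WT inputs.

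The 3 identical lysine genes, whose tRNA decodes AAG codons, had their highest values in WT IP libraries. TRK-CTT2-1 (chromosome 1) had 128 and 130 counts in WT IP libraries and no listed peak in either KO IP. Its inputs had 52 and 46 counts in WT and 49 and 78 in KO cells, so the gene was listed in KO cells before the pulldown and not after it. The KO inputs stood at 252 and 273 CPM, not far above the list minimum of KO IP libraries, 187 and 192 CPM. TRK-CTT2-5 (chromosome 16) had 74 and 71 counts in WT IP libraries and 10 and 16 in KO IP libraries, with 13 in WT input replicate 1, 15 in KO input replicate 2 and none listed in the other inputs. TRK-CTT2-2 (chromosome 5) had 35 counts in each WT IP and was listed in no other library. It lies antisense in an intron of the long non-coding RNA ENSG00000286644, and the other 2 overlap no gene other than the tRNA gene in GENCODE 44.

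On the CPM scale TRK-CTT2-1 rose from 511 ± 58.5 in WT input libraries to 2322 ± 516 in WT IP libraries (SD, n = 2 each). The log2 fold change was 2.12 (SE 0.27, adjusted p = 0.0045, edgeR's quasi-likelihood test with Benjamini-Hochberg adjustment over 243 regions). TRK-CTT2-5 stood at 1299 ± 238 CPM in WT IP libraries and 247 ± 84.6 in KO IP libraries (SD, n = 2 each), a log2 difference of 2.64 (SE 0.37, adjusted p = 0.000738 by the same test over 220 regions). TRK-CTT2-2 had 535 and 723 CPM in WT IP libraries. The peaks of all 3 genes in WT IP libraries had nearly the same outline. They began in the leader, 9, 8 and 8 nt before the gene for TRK-CTT2-1, TRK-CTT2-2 and TRK-CTT2-5, and ended inside it at positions 60, 59 and 64. In KO IP libraries the 2 peaks of TRK-CTT2-5 were shorter, with 1 ending at position 25 and the other inside the leader. Only these 3 of the 5 genes with this body had a listed region. With identical bodies and unique mapping required, reads without flank cannot be assigned, and how that moved these counts was not tested.

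The mature tRNA reference of this lysine family, shared by all 5 genes, had another pattern. It had 362 and 275 counts in WT IP libraries and 342 and 347 in KO IP libraries, against 1575 and 1812 in WT input libraries and 2161 and 3329 in KO input libraries. The mature tRNA was thus lower in both IPs than in the inputs, with log2 fold changes of -1.71 in WT (SE 0.11, adjusted p = 0.000999) and -0.90 in KO cells (SE 0.12, adjusted p = 0.00116). Between WT IP and KO IP it differed by 0.04 on the log2 scale (SE 0.14, adjusted p = 0.863; all by edgeR's quasi-likelihood test).

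**Figure D3:**
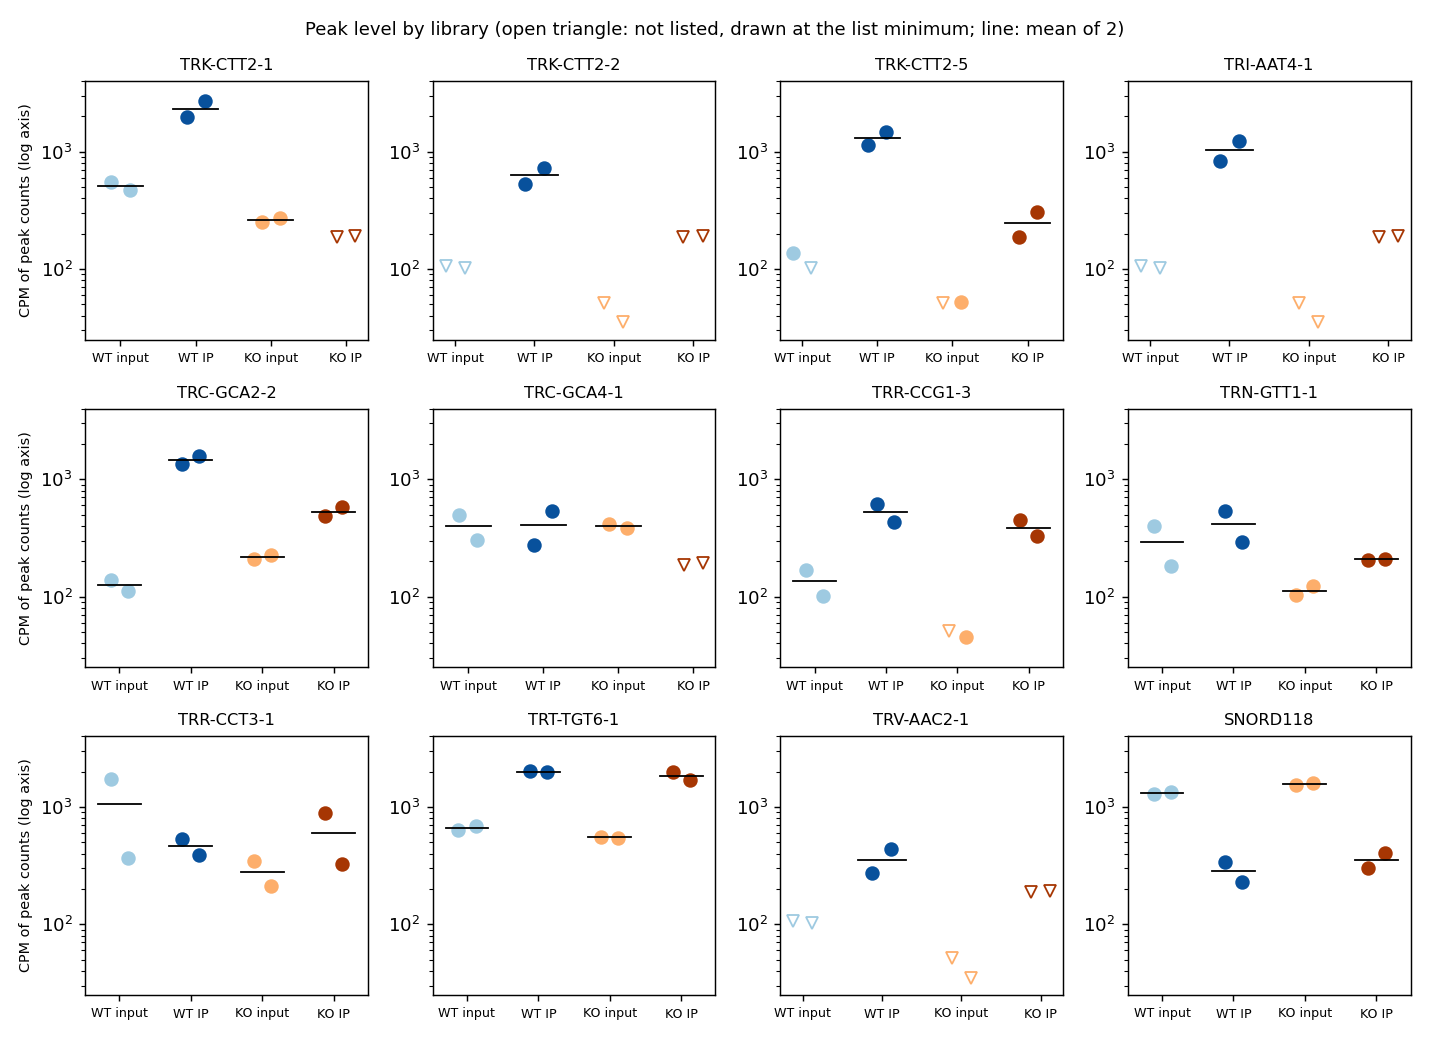
CPM of peak counts (log axis) in each library for 12 regions; filled points are listed peaks, open triangles mark libraries without a listed peak, drawn at the CPM of the list minimum, and the line is the mean of 2 where both libraries were listed. TRC-GCA2-2 lies at 1345 and 1571 CPM in WT IP libraries and at 487 and 575 in KO IP libraries, while TRT-TGT6-1 lies between 1707 and 2018 CPM in the IPs of both genotypes.

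The 2 cysteine genes printed above had unlike values. TRC-GCA2-2 had 88 and 76 counts in WT IP libraries and 13 and 11 in WT input libraries. In KO cells it had 26 and 30 counts in the IPs and 41 and 64 in the inputs. In CPM this was 125 ± 18.2 in WT input libraries, 1458 ± 160 in WT IP libraries, 217 ± 9.43 in KO input libraries and 531 ± 62.7 in KO IP libraries (SD, n = 2 each), so the 4 groups did not overlap. It rose in the IP of both genotypes, by 3.46 on the log2 scale in WT (SE 0.27, adjusted p = 0.00147) and by 1.19 in KO cells (SE 0.21, adjusted p = 0.0038), and was higher in WT IP than in KO IP by 1.71 (SE 0.31, adjusted p = 0.00262). The test of the difference between the 2 pulldown ratios, an interaction term, gave 2.63 (SE 0.31, adjusted p = 0.0006). These are edgeR's quasi-likelihood tests with Benjamini-Hochberg adjustment. With DESeq2 the KO pulldown ratio gave an adjusted p of 0.12, and the interaction had a log2 value of 2.46 but no adjusted p, as the tool's own filter set the region aside.

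TRC-GCA4-1, named after its values were seen, had 47 and 30 counts in WT input libraries, 18 and 26 in WT IP libraries, 81 and 109 in KO input libraries and no listed peak in KO IP libraries. Its level did not differ detectably between WT IP and WT input, at 406 ± 185 and 402 ± 136 CPM (SD, n = 2 each; log2 -0.07, SE 0.47, adjusted p = 0.909 by edgeR). The peaks of TRC-GCA2-2 in the IPs lay inside the gene, between positions 19 and 58 in WT and 28 and 57 in KO cells, while those in KO input libraries began 7 nt before it. Of the 4 genes with the body of TRC-GCA2-2, the other 3 lie outside the 7 windows. TRC-GCA2-3 had 50 and 35 counts and TRC-GCA2-1 had 11 in each of WT IP libraries, and neither was listed elsewhere; TRC-GCA2-4 was listed only in WT input replicate 2 (12 counts) and KO input replicate 2 (31 counts). With unique mapping required, reads without flank cannot be assigned to 1 of these copies, and how that moved the counts was not tested. No mature peak was listed for tRNA-Cys-GCA-2, and that of tRNA-Cys-GCA-4-1 differed by 0.65 between WT IP and KO IP (SE 0.39, adjusted p = 0.259 by edgeR).

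The other genes of the set of 10 had between 10 and 60 counts in WT IP libraries. TRI-AAT4-1, an isoleucine gene (chr17:8226991-8227064, minus strand), had 54 and 60 counts in WT IP libraries and was listed in no other library. It overlaps an untranslated exon part of CTC1 in the sense direction, and reads of CTC1 and of this tRNA gene cannot be told apart there. TRV-AAC2-1 had 18 and 21 counts in WT IP libraries and none listed elsewhere, and TRV-AAC1-4 had 23 and 18 there and 14 in KO input replicate 2. TRC-GCA9-4 (chr7:149707669-149707740, plus strand) had 17 and 14 counts in WT IP libraries and 16 in KO input replicate 2. The pulled-down fraction of WT cells was thus where these 4 genes were listed in both libraries, and none was listed in a WT input. TRA-TGC3-1, TRK-CTT4-1 and TRK-TTT3-5 had 28 and 24, 17 and 13, and 10 and 11 counts in WT IP libraries, and each was listed in both KO inputs. TRK-TTT3-5, TRA-TGC3-1, TRV-AAC1-4 and, below, TRT-AGT1-1 were named after their values were seen. TRV-AAC1-4 and TRK-TTT3-5 each share their body with 4 other genes, TRC-GCA9-4 with 3 and TRA-TGC3-1 with 1. Their reads without flank cannot be assigned to 1 copy.

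**Figure D4:**
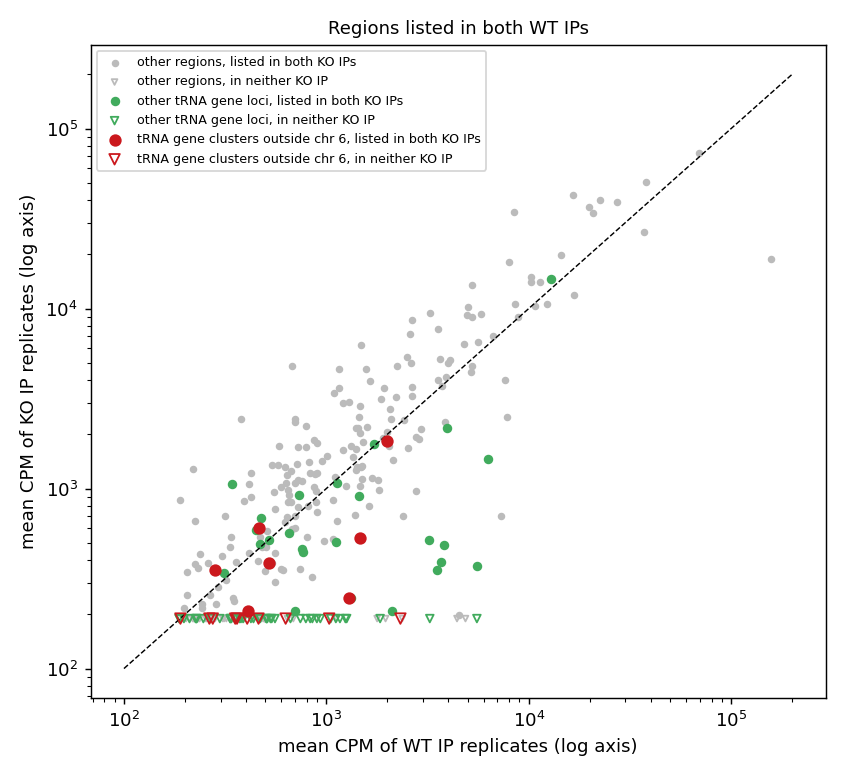
Mean CPM in WT IP libraries against mean CPM in KO IP libraries (log axes) for regions listed in both WT IP libraries, with open triangles for regions in neither KO IP. Of the regions of the 7 clusters 7 were in both KO IP libraries and 10 in neither; for other tRNA gene loci the numbers were 25 and 44, and for other regions 188 and 44.

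How far apart the 2 IPs were for these 10 depends on what a missing peak stands for. Set against the mean list minimum of KO IP libraries (189 CPM), the WT IP mean was 12.3-fold for TRK-CTT2-1, 5.45-fold for TRI-AAT4-1, 3.32-fold for TRK-CTT2-2 and 2.44-fold for TRA-TGC3-1. The median over the 10 was 2.03-fold and the lowest, TRK-TTT3-5, was 1.00-fold. The lower genes of this set therefore stood at or near the level from which a peak is listed at all. When missing peaks were given the list minimum of 10 counts and the test was run again, 5 of the 10 passed it: TRK-CTT2-1, TRI-AAT4-1, TRK-CTT2-2, TRA-TGC3-1 and TRV-AAC1-4, with log2 differences from 1.03 to 3.69 and edgeR adjusted p-values from 0.0056 to 0.0318. Of all 467 regions tested in this way 29.8% passed, with 16.5% higher and 13.3% lower in WT. The 10 were picked by this same contrast, which also fixed their direction, so their count is a description with nothing to be read from it.

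The pulldown of WT cells was then tested over regions listed in all 4 WT libraries. Of the regions in the 7 clusters 10 could be tested, and 5 passed an adjusted p of 0.05, against 48.1% of all 243 regions tested; 4 were higher (23.0% of all) and 1 was lower (25.1% of all). The median log2 fold change was 0.19 for the 10 and -0.17 for all 243. Since a region had to be listed in all 4 libraries, genes seen in the IP alone are not among them. Besides TRC-GCA2-2 and TRK-CTT2-1, the threonine gene TRT-TGT6-1 and the arginine gene TRR-CCG1-3 were higher, and the snoRNA SNORD118 was lower. TRT-TGT6-1 rose from 60 and 67 counts in WT input libraries to 132 and 95 in WT IP libraries, by 1.52 on the log2 scale (SE 0.18, adjusted p = 0.00312). TRR-CCG1-3 (chr16:3150674-3150746, plus strand), whose tRNA decodes CGG codons, had 16 and 10 counts in WT input libraries and 40 and 21 in WT IP libraries, an increase of 1.87 (SE 0.36, adjusted p = 0.0158 by edgeR). Its body is shared by 3 genes, and the copy TRR-CCG1-1 on chromosome 6 had 41 and 34 counts in WT IP libraries and none listed in the KO IPs. The call for TRR-CCG1-3 was lost with DESeq2 and without WT IP replicate 1 (log2 1.64, adjusted p = 0.0713).

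The other 5 did not pass, and for 3 of them the replicates were far apart. TRR-CCT3-1, an arginine gene (chr16:3152900-3152972, plus strand), had 164 counts in WT input replicate 1 and 36 in replicate 2, against 35 and 19 in WT IP libraries (log2 -1.24, SE 0.81, adjusted p = 0.289). Its value turned to 0.34 (adjusted p = 0.629) without WT input replicate 1 and passed at -1.82 (adjusted p = 0.00298) without WT input replicate 2. TRT-AGT1-1, a threonine gene (chr17:8187160-8187233, plus strand), had 111 and 19 counts in WT input libraries and 56 and 12 in WT IP libraries, a log2 value of -0.36 (SE 1.01, adjusted p = 0.787) that turned to 1.53 (adjusted p = 0.00966) without WT input replicate 1. TRN-GTT1-1, an asparagine gene (chr1:161540241-161540314, plus strand) in an intron of the long non-coding RNA ENSG00000273112, had 38 and 18 counts before and 35 and 14 after the pulldown (log2 0.44, SE 0.51, adjusted p = 0.538), and without WT input replicate 1 it passed at 1.17, with an adjusted p of 0.0276, and without WT IP replicate 1 it was -0.04. In all 3 genes replicate 1 had the higher count in both WT fractions. TRK-CTT4-1 and TRC-GCA4-1 had log2 values of -0.05 and -0.07. All adjusted p-values are from edgeR's quasi-likelihood test.

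In KO cells 5 regions of the clusters were listed in all 4 libraries, and 3 passed, against 56.5% of all 246 regions tested; 2 were higher (25.6% of all) and 1 was lower (30.9% of all). The median log2 fold change of the 5 was 1.03 and that of all regions 0.04. TRT-TGT6-1 had 108 and 156 counts in KO input libraries and 106 and 89 in KO IP libraries, which is 551 ± 6.33 and 1846 ± 196 CPM (SD, n = 2 each) and a log2 change of 1.65 (SE 0.20, adjusted p = 0.000697). It was thus higher in the IP of both genotypes, and the interaction of 0.22 (SE 0.27, adjusted p = 0.567) did not show a difference between them. Its peaks in the 4 IPs lay inside the gene, between positions 32 and 68. Those of WT input libraries ran from 10 nt before the gene to 62 nt after it. Those of KO input libraries ran from 9 nt before the gene to position 59. No mature peak was listed for tRNA-Thr-TGT-6-1. TRN-GTT1-1 had 20 and 35 counts in KO input libraries and 11 in each KO IP (log2 0.78, SE 0.26, adjusted p = 0.0674; 0.0431 with peak totals as library sizes). TRR-CCT3-1 had 67 and 61 before and 47 and 17 after the pulldown (log2 1.03, SE 0.48, adjusted p = 0.114; edgeR). That value rested on single libraries. It passed at 1.45 without KO input replicate 1 (adjusted p = 0.000423) and at 1.53 without KO IP replicate 2 (adjusted p = 0.00669), and was 0.66 without KO input replicate 2 and 0.19 without KO IP replicate 1 (adjusted p = 0.714).

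SNORD118, the U8 snoRNA that takes part in ribosomal RNA processing, was the only tested region outside tRNA genes (chr17:8173446-8173592, minus strand). It had 121 and 131 counts in WT input libraries and 22 and 11 in WT IP libraries, and 297 and 452 in KO input libraries and 16 and 21 in KO IP libraries. The log2 change was -2.27 in WT (SE 0.26, adjusted p = 0.00281) and -2.24 in KO cells (SE 0.23, adjusted p = 0.00043), and the IPs differed by -0.03 (SE 0.37, adjusted p = 0.94; edgeR). The region also overlaps an exon of TMEM107 on the same strand, and reads of the 2 genes cannot be told apart.

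The comparison of the 2 IPs asked which pulled-down RNA differed in level between WT and KO cells, and took no account of their inputs. Of 7 regions listed in all 4 IPs, 3 passed, all higher in WT, against 37.3% of all 220 regions tested and 18.6% in this direction. The median log2 difference was 0.70 for the 7 and 0.03 for all regions. The 3 were TRK-CTT2-5 and TRC-GCA2-2, given above, and TRN-GTT1-1. TRN-GTT1-1 had 535 and 289 CPM in WT IP libraries and 206 and 211 in KO IP libraries, a log2 difference of 1.26 (SE 0.41, adjusted p = 0.0381 by edgeR). This call was lost under 7 of 10 alternatives, with adjusted p-values up to 0.376, among them leaving out WT IP replicate 1, KO IP replicate 1 or KO IP replicate 2. Without WT IP replicate 1 its value was 0.70 and with the peak totals as library sizes 1.01. The mature tRNA-Asn-GTT-1-1, a reference that no other gene shares, differed by 0.26 between the IPs (SE 0.24, adjusted p = 0.471). At the gene itself the inputs differed by 1.41 between WT and KO cells (SE 0.43, adjusted p = 0.0613), and passed without WT input replicate 2 (1.85, adjusted p = 0.0457). The interaction for TRN-GTT1-1 was 0.05 (SE 0.63, adjusted p = 0.963), so a difference between its pulldown ratios was not detected. The interaction could not be tested for TRK-CTT2-5, which was not listed in all inputs.

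The other 4, which included SNORD118, did not pass. TRR-CCG1-3 had 24 and 17 counts in KO IP libraries and a log2 difference of 0.70 (SE 0.35, adjusted p = 0.164). The mature tRNA-Arg-CCG-1 reference, which 3 genes share, was higher in WT IP libraries by 2.01 (SE 0.29, adjusted p = 0.000946). The interaction for this reference was 1.52 (SE 0.68, adjusted p = 0.129 by edgeR), so a difference between its pulldown ratios was not detected. TRT-TGT6-1 differed by 0.36 (SE 0.25, adjusted p = 0.312) and TRR-CCT3-1 by -0.11 (SE 0.47, adjusted p = 0.865). For all 3 genes the CPM values of the WT and KO IPs overlapped. The interaction could be tested for 5 regions, of which 1, TRC-GCA2-2, passed, against 30.1% of all 186 regions tested, with 19.9% in this direction and 10.2% in the other. Its median was 0.22 for the 5 and 0.04 for all, and for TRR-CCT3-1 it was -1.87 (SE 0.99, adjusted p = 0.191; all by edgeR's quasi-likelihood test). That value passed without WT input replicate 2 (-2.56, adjusted p = 0.0469).

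Before the pulldown, the inputs of the genotypes also differed. Of 14 regions tested, 3 passed, all higher in WT, against 35.2% of all 400 regions tested, of which 15.5% were higher and 19.8% lower in WT. The median log2 values were 0.78 for the 14 and -0.00 for all. The 3 were TRN-GTT2-7 (chr1:145287766-145287839, plus strand; 58 and 17 counts in WT input libraries, 13 and 20 in KO input libraries; log2 2.56, SE 0.67, adjusted p = 0.0478), TRK-CTT4-1 (chr16:3191501-3191573, plus strand, in an intron of OR1F1; 30 and 20 against 18 and 36; 1.29, SE 0.32, adjusted p = 0.044) and TRK-CTT2-1 (1.00, SE 0.20, adjusted p = 0.0324). Without WT input replicate 1, KO input replicate 1 or KO input replicate 2 edgeR called 0 of all 400 regions, those of the clusters included, where 2, 1 and 3 regions of the clusters had an unadjusted p under 0.05. Without WT input replicate 2 it called 74 of all, among them TRN-GTT2-7, TRN-GTT1-1 and TRR-CCT3-1 of the clusters and not the 2 lysine genes. DESeq2 made 1 call in the clusters and 64 over all 400 regions. Whether the input reads at these genes came from precursors was not tested. Fewer cells with such RNA and less of it per cell cannot be told apart in bulk RNA. Regions seen in KO input libraries alone included RNVU1-2A, a variant U1 snRNA gene (region chr1:144551875-144551923, minus strand), at 149 and 165 CPM, and SNORD95, a snoRNA gene whose region overlaps RACK1 on the same strand (chr5:181243339-181243380, minus strand), at 129 and 161 CPM. The minimum of WT input libraries, 102 and 106 CPM, was not far below these levels.

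Peak outlines at the tRNA genes were compared last, since the leader is part of the precursor and not of the mature tRNA. In its crosslinking experiment the study read positions from the stops of reverse transcription, and it processed the present libraries through the same pipeline. A peak may therefore outline such stops and not whole reads. One that lies inside the gene does not show that its reads lacked flank. Among 145 peaks of single libraries at the 38 genes, 69 held leader nt and 6 trailer nt, and 75 lay inside the gene. Leader nt were in 42.1% and 50% of the peaks of WT IP libraries and in 11.1% and 14.3% of those of KO IP libraries. In the inputs the order of the genotypes was the other way round, with 36.4% and 29.4% in WT and 66.7% and 71.9% in KO cells. The groups of peaks differ in their genes, however. Over the 7 genes with peaks in all 4 groups, 4 of 14 peaks in WT IP libraries and 2 of 13 in KO IP libraries held leader nt, against 5 of 13 in WT input libraries and 10 of 12 in KO input libraries. Peaks of these genes in KO input libraries thus reached the leader most often, and the difference between the IPs was smaller than over all genes. KO input libraries also had the largest peak sums, 194494 and 285539 counts. Whether the extent of a peak follows its count was not tested. The median peak length was 24 nt in WT input libraries, 54 in WT IP libraries, 55 in KO input libraries and 26 in KO IP libraries. Peaks of 1 gene in several libraries share its sequence and were not treated as replicates, and no test was made.

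**Figure D5:**
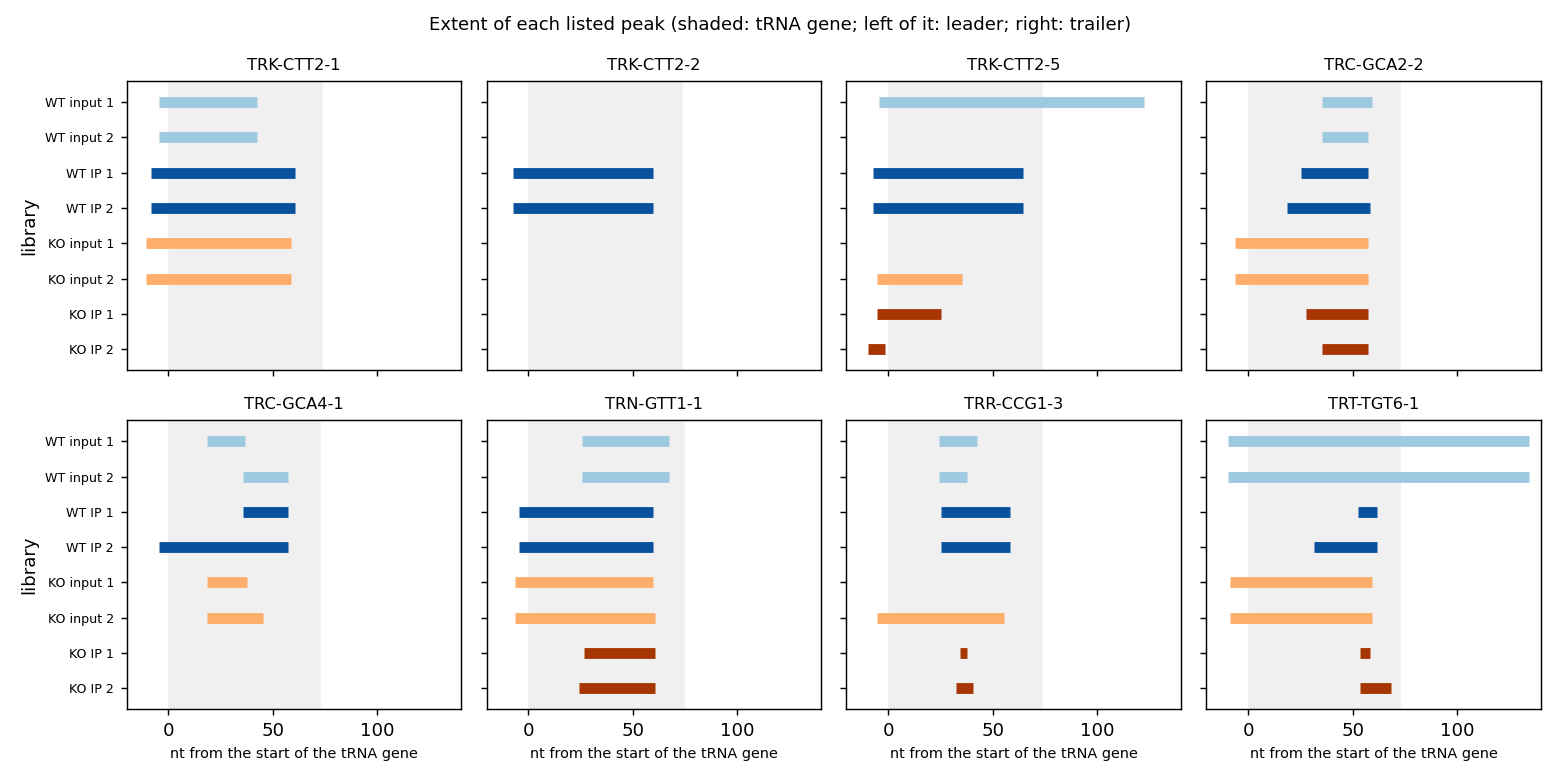
Extent of each listed peak in nt from the start of the tRNA gene (x axis) for 8 genes, with 1 bar per library and the gene shaded; the part left of the shading is the leader and the part right of it the trailer. The WT IP peaks of the 3 TRK-CTT2 genes begin 8 or 9 nt before the gene, and the IP peaks of TRC-GCA2-2 and TRT-TGT6-1 lie inside it.

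The scaling moved the median of all regions. The median log2 value of all regions was -0.17 with TMM, -0.03 with the factors of DESeq2 and -0.10 with peak totals for WT IP against WT input, and 0.03, -0.00 and -0.22 for WT IP against KO IP. For the interaction it was 0.04, -0.14 and -0.34. Of all regions, 41 were higher and 41 lower in WT IP against KO IP, but 28 and 55 with peak totals. For the interaction 37 were higher and 19 lower, against 33 and 32 with the factors of DESeq2 and 21 and 48 with peak totals.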

How the data were processed

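Peak lists from 8 ARP-seq libraries were analysed, 2 per group, grouped by the genotype and fraction given in the labels. Per the study's methods, the authors mapped reads with STAR through the iCount consensus pipeline, beginning with tRNA and rRNA references and taking what was left to GRCh38, kept reads that mapped uniquely, collapsed duplicates by unique molecular identifier, and called peaks with Paraclu at default settings in each library. The deposited value of a peak is a count of unique cDNA molecules, with no normalization, and no listed peak had fewer than 10. Since unique mapping was required, near-identical tRNA genes can lose or exchange reads. The number of reads was not analysed here, so the precision of a peak is limited by its count, and the spike-in was not analysed here.

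Peaks were merged by an overlap of 1 nt on 1 strand, and the merged counts were expressed as CPM of all listed peak counts of a library. A region was assigned to a tRNA gene when it overlapped the gene or its flanks of 50 nt. Genes, sequences and annotation came from RefSeq (GRCh38 patch 14) and GENCODE 44, and the strand of a tRNA gene came from its B box, since RefSeq gave none. Of 26 reference names in the lists, 25 matched the genome. Testing took regions with a peak in every library compared and used edgeR 4.0.16 (TMM, quasi-likelihood, two-sided, Benjamini-Hochberg over all tested regions, threshold 0.05) in R 4.3.3, fitting the compared groups alone, or all 4 for the interaction. The fits were tested on simulated data. Shares were compared by exact permutation (scipy 1.17.1, Python 3.11.15, numpy 2.4.6), and figures were drawn with matplotlib 3.10.9.

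Named regions were those listed in all 8 libraries, the highest of each cluster, in each comparison the 5 largest among the changes that passed, the 5 highest listed in both libraries of 1 group only, and tested regions outside tRNA genes. The windows, lists and this rule were chosen with earlier results of these data known. The 44 alternatives covered scaling, DESeq2 1.42.0, missing peaks at 0 or at the list minimum, a mean count of at least 50, the replicate number as a block, each replicate left out, and other denominators of the share. The labels number the replicates 1 and 2 in each group but do not say that a number marks a shared culture or day.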

Additional observations from a re-analysis of the deposited data

Results flagged for a closer look

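The pulldown ratio of TRC-GCA2-2, a cysteine tRNA gene of the small cluster on chromosome 17, differed between the genotypes by a test of the difference itself. IP exceeded input by 3.46 on the log2 scale in WT and by 1.19 in KO cells, and the interaction was 2.63 (SE 0.31, adjusted p = 0.0006, edgeR's quasi-likelihood test). Both WT IPs (1345 and 1571 CPM) lay above both KO IPs (487 and 575 CPM), and both WT inputs (138 and 112 CPM) lay below both KO inputs (211 and 224 CPM). Over 14 alternatives the value lay between 2.25 and 2.7, and the highest adjusted p was 0.0109, except with DESeq2, which gave 2.46 and no adjusted p. This gene shares its body with 3 others. Reads without flank cannot be assigned to 1 of these copies, and how that moved its counts was not tested. Of 5 regions whose interaction could be tested it was the only one past the threshold, against 30.1% of all 186 regions. The WT inputs of TRC-GCA2-2 held 13 and 11 counts, close to the list minimum of 10. Its WT input peaks ran from position 36 to 59 and 57, and its KO input peaks from 7 nt before the gene to position 57. The interaction fit with a mean count of at least 50 did not include this region.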

How the results depend on the processing

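Counts of regions past the threshold moved most with the treatment of missing peaks. In the order WT IP against WT input, KO IP against KO input, WT IP against KO IP, WT input against KO input and interaction, they were 5, 3, 3, 3 and 1. With missing peaks at 0 they were 15 of 25 tested, 21 of 30, 12 of 18, 9 of 35 and 5 of 41, against 54.6%, 69.2%, 42.6%, 43.3% and 9.33% of all regions. At the list minimum they were 12, 15, 7, 5 and 2 of the same numbers, against 43%, 52.7%, 29.8%, 27% and 14.4% of all. The direction of the calls moved with this choice, as it did over all regions. KO IP against KO input had 2 higher and 19 lower calls at 0, beside 12.2% and 57% of all regions. At the minimum it had 12 higher and 3 lower, beside 24.4% and 28.2% of all. The inputs had 1 higher in WT and 8 lower at 0, beside 7.79% and 35.5% of all. At the minimum they had 4 and 1, beside 8.15% and 18.9% of all. Of the 18 in WT IP against KO IP, 10 were listed in both WT IPs and neither KO IP and none the other way round, so the direction of their calls (5 of the 7 at the minimum) was fixed by their listing. In WT IP against WT input, 6 were listed in both WT IPs and neither WT input. Their listing fixed the direction of their calls, 5 of the 12 at the minimum. With missing peaks at 0, any region listed in only 1 of 2 compared groups likewise had its direction fixed by its listing. A missing peak at the minimum is worth 187 and 192 CPM in the KO IPs and 35.0 to 51.4 in the KO inputs. With a mean count of at least 50, 3 of 4 tested passed for WT IP against WT input, beside 96 of 171 over all regions. For KO IP against KO input it was 2 of 2, beside 110 of 201. Between genotypes 1 of 2 passed for the IPs, beside 66 of 138, and 1 of 5 for the inputs, beside 125 of 284. For the interaction 0 of 3 passed, none with an unadjusted p under 0.05 by edgeR, beside 56 of 166 over all regions. DESeq2 made 1 call for the inputs, beside 64 of 400 over all regions, and 0 for the interaction, beside 52 of 186. For the interaction 1 region of the clusters had an unadjusted p under 0.05 by DESeq2. Peak totals as library sizes left 1 call for the inputs, beside 149 of 400 over all regions. Counts for each comparison with 1 library left out are not given here, since 1 group then holds 1 library. With the replicate number as a block there were 5 calls of 10 tested, 4 of 5, 4 of 7, 7 of 14 and 2 of 5. Over all regions the block gave 136 of 243, 142 of 246, 116 of 220, 208 of 400 and 70 of 186. The 208 for the inputs stood against 141 without the block. Among the gains under the block were TRR-CCG1-3 in WT IP against KO IP (0.69, adjusted p = 0.0341), TRR-CCT3-1 in KO IP against KO input (0.93, adjusted p = 0.0214) and in the interaction (-1.59, adjusted p = 0.0302), and TRN-GTT1-1 between the inputs (1.33, adjusted p = 0.00258; all edgeR). The differences of same-numbered replicates correlated between -0.0529 and 0.494 over 186 regions, and with 2 numbers per group they were not taken as pairs. Over all regions DESeq2 called 64 for the inputs and 54 for WT IP against KO IP, where edgeR called 141 and 82. The KO share difference of -0.0721 points turned to 0.115 over tRNA genes alone and to 0.0286 without KO IP replicate 2, and that of the inputs to -0.0507 without WT input replicate 1. Leaving out 1 library, the share differences ranged from 0.375 to 0.828 (WT), -0.173 to 0.0286 (KO), 0.748 to 0.950 (IPs) and -0.0507 to 0.402 points (inputs). TRT-AGT1-1 in WT IP against WT input turned from -0.36 to 1.53 without WT input replicate 1 and was -1.49 without WT IP replicate 1. Of the other values of single regions, 354 kept direction and side of the threshold, 45 that were past the threshold in neither fit changed sign, 30 lost the call and 16 gained one; the cause was not tested.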
